A study of Rattus norvegicus with 44 samples.

Results

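Genes that the transcription factor p53 is known to switch on were followed in H4-II-E-C3 cells, a rat hepatoma line with liver properties, after exposure to nickel, chromium or cadmium. The genes were Cdkn1a, Mdm2, Ccng1, Gadd45a, Bax, Btg2, Sesn1, Phlda3 and Fas. They are textbook targets of the pathway, and the list was chosen with earlier results of these data known. Their members on the array were the probe sets whose annotation names exactly 1 of these genes. That gave 13 of the 31099 probe sets of the array, for 7 of the 9 genes. The only probe set that names Bax names a further gene as well, and none names Btg2, so neither gene has a member. Of the 13 probe sets, 9 passed a filter on low values and were tested, for 6 genes: 1 each for Cdkn1a, Ccng1, Gadd45a and Phlda3, 2 for Sesn1 and 3 for Mdm2. A second probe set for Cdkn1a and all 3 for Fas were too dim. The 9 that passed did so on the control arrays alone, so no member was tested only because an exposure raised it.

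Each array measured the RNA of cells of this established line kept for 24 h in medium without serum, and the control cells received no metal. Nickel was given as NiCl2 at 40, 140 and 400 µM, chromium as Na2Cr2O7 at 0.275, 1 and 10 µM and cadmium as CdCl2 at a lowest concentration of 0.2 µM, a middle one of 0.55 µM and a highest one of 1.2 µM. The concentrations of each metal were chosen in the study from viability assays, at no observed death, at moderate death and at heavy death, so the highest concentrations of the 3 metals were matched by cell death and not by amount. Each of the 9 exposures had 4 biological replicates, and the controls had 2 arrays in each of the 4 replicates, 44 arrays in all. The labels call these biological replicates and do not say that they came from separate cultures, so p-values measure only the spread between these arrays, which may be in part technical.

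p53 is held at a low level in unstressed cells by Mdm2, the ubiquitin ligase that marks it for destruction, and is released by DNA damage and other stresses. It then binds DNA as a tetramer and raises genes that halt the cell cycle, repair DNA, adjust growth signalling or start apoptosis. Mdm2 is itself among its targets, which closes a feedback loop. Several of these genes, Gadd45a above all, also respond to stresses through other transcription factors.

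The condition of each array followed an order of the sample titles that places the 4 titles marked as repeated microarrays last. In that order 22 arrays have the condition of their GEO label and 22 have another. The order was kept because condition means computed from it differed from the study's own table of means by at most 7.5e-06 on the log2 scale, over 8928 values, while the labels as given differed by up to 4.32. Every result below rests on that order, and with conditions as labelled no member was called in any exposure. The 4 repeated arrays, made again from the same RNA, were nickel 140 µM, nickel 400 µM and chromium 0.275 µM in replicate 4 and cadmium 0.55 µM in replicate 2. Array medians lay between 5.93 and 6.0 on the log2 scale. Of 10 hepatocyte markers 9 had a probe set and 7 were tested, with Alb (albumin) at 14.55 in controls. Of 11 markers of other liver cells only Acta2 passed the filter, and their median level was 4.59 in controls and 4.6 to 4.71 at the highest concentrations.

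The DNA next to the genes was set beside the expression values. RefSeq promoters of the GRCr8 build, from 250 bases before to 50 bases after the start of each gene, were found for 8 of the 9 genes and searched for the p53 half-site consensus, a 10-base pattern that reads the same on both strands. A match was present in 4 of the 8, and in 7.98% of all 33469 promoters. The 4 stretches are shown because they are the only matches in these windows. The half-site is in capitals and the rest in lower case, 5′ to 3′ on the strand of the gene.
Cdkn1a: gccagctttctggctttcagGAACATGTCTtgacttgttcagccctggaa
Ccng1: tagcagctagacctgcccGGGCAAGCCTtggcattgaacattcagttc
Gadd45a: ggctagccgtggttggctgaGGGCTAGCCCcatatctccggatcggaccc
Sesn1: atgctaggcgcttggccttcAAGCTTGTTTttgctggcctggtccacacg
The Cdkn1a stretch lies at chr20:7150711-7150760 on the plus strand, with the half-site beginning 201 bases before the start. The Ccng1 stretch lies at chr10:25685079-25685126 on the minus strand, with the half-site beginning 232 bases before. That of Gadd45a lies at chr4:97486818-97486867 on the minus strand, 48 bases before. That of Sesn1 lies at chr20:46948527-46948576 on the plus strand, 172 bases before. A full site, meaning 2 half-sites no more than 13 bases apart, was in none of the 8 promoters and in 0.0598% of all. These windows are short, and a match is a description of letters, not of binding.

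Most of the tested members were higher in cells exposed to the highest concentrations of chromium and cadmium, and few were at the highest concentration of nickel. A probe set was called changed at an adjusted p under 0.05 in limma, over all 15771 probe sets tested. At chromium 10 µM 6 of the 9 member probe sets were called higher and 2 lower, 8 in all, where 23.2% of all tested probe sets were called higher and 19.4% lower, 42.7% in all. At cadmium 1.2 µM 7 were called higher and none lower, beside 24.2% higher, 14.0% lower and 38.2% in either direction over all tested. At nickel 400 µM 2 were called higher, both for Mdm2, and none lower, beside 23.8% higher, 16.7% lower and 40.5% in either direction. Mdm2 and Sesn1 enter these counts with more than 1 probe set. Of the 6 tested genes, 4 had a probe set called higher and 1 lower at chromium 10 µM. At cadmium 1.2 µM 5 had one called higher, and at nickel 400 µM 1 had. With only the probe set of highest mean for each gene, none of the 6 was called at nickel 400 µM. At cadmium 0.55 µM 6 were called higher and none lower, beside 8.42% of all called higher. A stricter rule after the study's methods asked for an FDR of 0.001 or less for concentration and a 1.8-fold change at the concentration itself. It called 2 members at chromium 10 µM, Phlda3 and 1384427_at of Mdm2, beside 2.75% of all tested. It called 4 at cadmium 1.2 µM, beside 1.67%, and none at nickel 400 µM, beside 2.04%. The median log2 change over the 9 probe sets was 0.53 at chromium 10 µM, 0.62 at cadmium 1.2 µM and -0.25 at nickel 400 µM, and the median over all tested probe sets was 0.02, 0.04 and 0.02. In a bulk measurement such as this a gene that is lower per cell cannot be told apart from a loss of the cells that express it. The paragraphs on single genes also say where the arrays of an exposure stood apart from every control. The share of all tested probe sets that stood apart in this way was not counted.

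The other 5 exposures gave no calls among the members in limma. At cadmium 0.2 µM, where 0.488% of all tested were called, 1 member had an unadjusted p under 0.05. At nickel 140 µM, with 3.45% called, 2 members had one, and at chromium 0.275 µM, with 0 called, also 2. At nickel 40 µM, with 0 called, and at chromium 1 µM, with 0.0444% called, no member had an unadjusted p under 0.05. The analysis of variance without moderation, run as an alternative, called no member in these 5 exposures either.

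**Figure D1:**
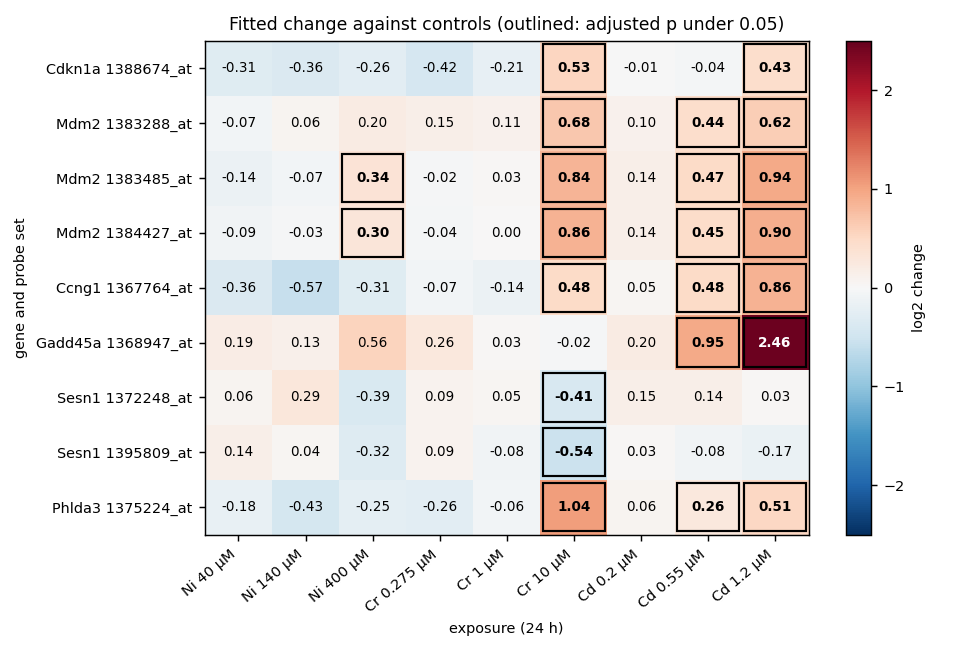
Fitted log2 change against controls (colour and number) for the 9 tested probe sets of the p53 target genes (rows) at the 9 exposures (columns). Outlined cells passed an adjusted p of 0.05. The outlined cells lie at chromium 10 µM, cadmium 0.55 and 1.2 µM and, for 2 Mdm2 probe sets, nickel 400 µM, and the deepest colour is Gadd45a at cadmium 1.2 µM (2.46).

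Cdkn1a encodes p21, the inhibitor of cyclin-dependent kinases through which p53 halts the cell cycle. Its tested probe set, 1388674_at, had log2 values from 8.53 to 8.94 on the 8 control arrays, with a median of 8.76. At chromium 10 µM replicates 1 to 4 read 9.45, 8.91, 9.55 and 9.21, so 3 of the 4 arrays stood above every control and replicate 2 lay among them. At cadmium 1.2 µM the replicates read 9.23, 9.20, 9.22 and 9.08, all above every control. The changes were 0.53 ± 0.16 (SE, 1.44-fold, adjusted p = 0.016) for chromium and 0.43 ± 0.14 (SE, 1.35-fold, adjusted p = 0.03) for cadmium. Over the other fits in this order of conditions the chromium change ran from 0.30 to 0.70 and the cadmium change from 0.29 to 0.47, and whether they passed varied. Both passed without the 4 repeated arrays (adjusted p = 0.0061 and 2.1e-04) and without replicate 2 (0.70, adjusted p = 0.0044, and 0.47, adjusted p = 3.9e-04). The chromium call was lost without replicate 1 (0.51, adjusted p = 0.091) or replicate 3 (0.38, adjusted p = 0.086), and the cadmium call without replicate 1, 3 or 4 (0.45, 0.36 and 0.44, adjusted p = 0.092, 0.14 and 0.11), without the replicate block (adjusted p = 0.052), without moderation (0.074), after scaling arrays to the same median (0.35, adjusted p = 0.068) and in 1 fit over all metals (0.1). At cadmium 0.55 µM replicates 1, 3 and 4 read 9.01, 8.99 and 8.78 and the repeated array of replicate 2 read 8.09, and the change was -0.04 with that array and 0.18 (adjusted p = 0.15) without the repeated arrays.

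The second Cdkn1a probe set, 1387391_at, was too dim for the filter, with control values from 5.21 to 5.91. At cadmium 1.2 µM it read 6.44, 5.93, 6.70 and 6.75, all above the controls, and at chromium 10 µM 6.69, 5.75, 6.72 and 6.72, with replicate 2 again among the controls. In a fit with no filter, where 21.9% of 31042 probe sets were called at chromium 10 µM and 22.0% at cadmium 1.2 µM, its changes were 0.94 (adjusted p = 0.0025) and 0.92 (adjusted p = 3.4e-05). Both probe sets of the gene thus ran higher at the same 2 exposures.

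Mdm2 was the only member gene called at all 3 of the highest concentrations. On 1383288_at the controls ran from 9.66 to 9.99 with a median of 9.77, and chromium 10 µM gave 10.49, 10.44, 10.58 and 10.37 while cadmium 1.2 µM gave 10.55, 10.37, 10.36 and 10.34. All 8 exposed arrays were above every control. The other 2 probe sets, 1383485_at and 1384427_at, showed the same separation at both exposures. Chromium raised the 3 probe sets by 0.68 ± 0.11, 0.84 ± 0.10 and 0.86 ± 0.10 (SE), or 1.61, 1.78 and 1.82-fold, with adjusted p from 1.5e-05 to 2.7e-04. Cadmium raised them by 0.62 ± 0.07, 0.94 ± 0.07 and 0.90 ± 0.05 (SE), or 1.54, 1.92 and 1.86-fold, with adjusted p from 8.7e-08 to 2.8e-05. Under nickel the rise was smaller: 0.34 ± 0.09 (SE, adjusted p = 0.0072) on 1383485_at and 0.30 ± 0.09 (SE, adjusted p = 0.016) on 1384427_at, with 0.20 ± 0.09 (SE, adjusted p = 0.12) on 1383288_at. Nickel 400 µM gave 8.87, 8.97, 8.62 and 8.43 on 1383485_at against controls from 8.28 to 8.59, so 3 of the 4 arrays were above every control. The other 2 probe sets overlapped the controls too. On 1383288_at nickel ran from 9.75 to 10.32 with a median of 9.93, which is below the highest control of 9.99. On 1384427_at it ran from 9.64 to 10.32 with a median of 9.94, against controls from 9.54 to 9.88. Without replicate 2 neither nickel call held (0.25, adjusted p = 0.099, and 0.23, adjusted p = 0.15), and the call on 1384427_at was also lost without replicate 1 (0.24, adjusted p = 0.096) and without the replicate block (adjusted p = 0.11).

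Ccng1 encodes cyclin G1, a partner of protein phosphatase 2A that acts on Mdm2 in the same feedback. Controls read 9.77 to 10.35 with a median of 10.03. Chromium 10 µM gave 10.54, 10.57, 10.57 and 10.41 and cadmium 1.2 µM gave 11.07, 10.84, 10.88 and 10.85, and no array of either overlapped the controls. The rise was 0.48 ± 0.12 (SE, 1.39-fold, adjusted p = 0.0051) for chromium and 0.86 ± 0.09 (SE, 1.82-fold, adjusted p = 8.5e-06) for cadmium. Without replicate 3 the chromium call was lost (0.42, adjusted p = 0.056). At nickel 140 µM all 4 arrays, 9.54, 9.61, 9.54 and 9.22, lay below every control, yet the change of -0.57 ± 0.23 (SE) did not pass (adjusted p = 0.2).

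**Figure D2:**
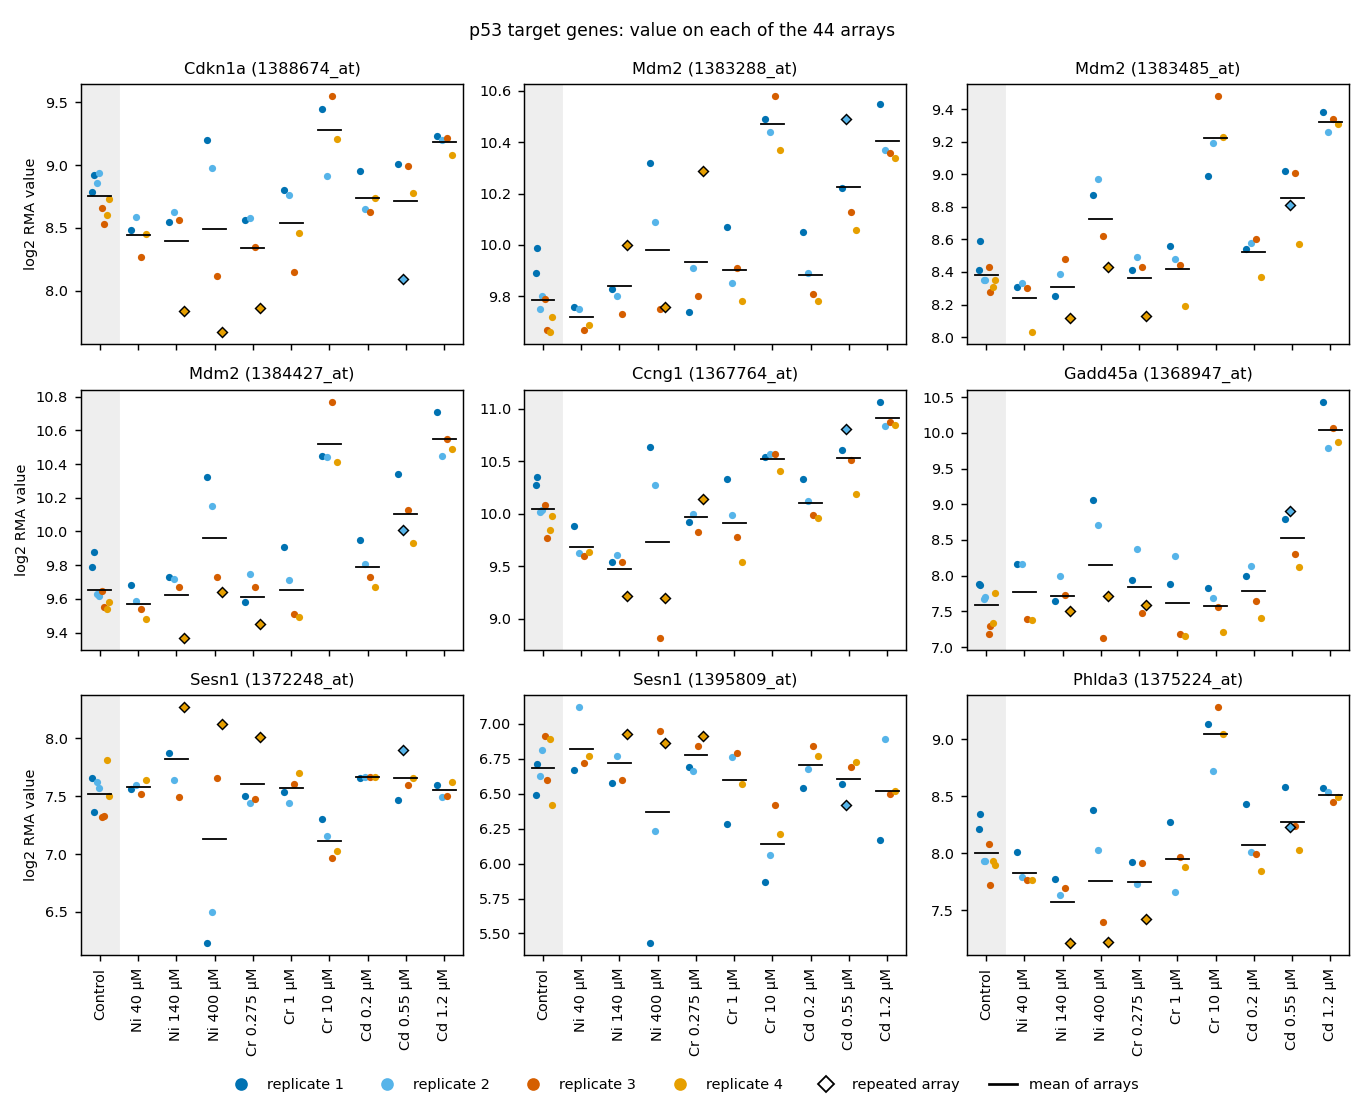
Log2 RMA value (y axis, a separate scale in each panel) of the 9 tested probe sets on each array, by condition (x axis). Points are single arrays coloured by replicate, diamonds are the 4 repeated arrays, black lines are means and the shaded column holds the 8 controls. All arrays at cadmium 1.2 µM lie above the controls for the Cdkn1a, Mdm2, Ccng1, Gadd45a and Phlda3 probe sets. The share of all tested probe sets that separate in this way was not counted. The nickel 400 µM arrays spread widely.

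Gadd45a, which encodes a small stress protein active in growth arrest and DNA repair, had the largest change of any member and separated the metals most. Controls read 7.18 to 7.89 with a median of 7.68. Cadmium 1.2 µM gave 10.44, 9.79, 10.07 and 9.88, cadmium 0.55 µM gave 8.80, 8.91, 8.31 and 8.12, and both sets of 4 arrays were above every control. The change was 2.46 ± 0.14 (SE, 5.49-fold, adjusted p = 4.0e-08) at 1.2 µM and 0.95 ± 0.14 (SE, 1.93-fold, adjusted p = 0.0017) at 0.55 µM. At cadmium 0.2 µM it was 0.20 ± 0.14 (SE, adjusted p = 0.72). Chromium 10 µM gave 7.83, 7.68, 7.56 and 7.21, all within the control range, and a change of -0.02 with a 95% confidence interval from -0.32 to 0.29. Nickel 400 µM gave 9.06, 8.71, 7.13 and 7.72, with replicates 1 and 2 above the controls and replicates 3 and 4 not. The nickel change of 0.56 ± 0.22 (SE) missed the threshold (adjusted p = 0.058), and whether it passed varied between fits. It passed without replicate 3 (0.79, adjusted p = 0.012), with 8 separate controls (adjusted p = 0.015), with Control 1 arrays alone (0.63, adjusted p = 0.032) and in 1 fit over all metals (adjusted p = 0.019). It did not pass without replicate 1 (0.36, adjusted p = 0.21), replicate 2 (0.41, adjusted p = 0.3) or replicate 4 (0.70, adjusted p = 0.073). Nor did it pass without the 4 repeated arrays (0.64, adjusted p = 0.074).

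Phlda3, whose product competes with the kinase Akt for membrane lipids and so restrains it, had the largest chromium change among the members. Controls read 7.72 to 8.34 with a median of 7.93. Chromium 10 µM gave 9.13, 8.72, 9.28 and 9.04, and cadmium 1.2 µM gave 8.57, 8.54, 8.45 and 8.49. Every one of these arrays was above every control. The change was 1.04 ± 0.10 (SE, 2.05-fold, adjusted p = 6.2e-06) with chromium and 0.51 ± 0.07 (SE, 1.42-fold, adjusted p = 1.6e-04) with cadmium. At cadmium 0.55 µM it was 0.26 ± 0.07 (SE, adjusted p = 0.039), and that call was lost when any 1 replicate was left out (0.24 to 0.31, adjusted p from 0.057 to 0.24).

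Sesn1, a sestrin that restrains the growth kinase mTORC1 under stress, went the other way. On 1372248_at the controls read 7.32 to 7.81 and chromium 10 µM gave 7.30, 7.16, 6.97 and 7.03, all below every control. On 1395809_at the controls read 6.42 to 6.91 and chromium gave 5.87, 6.06, 6.42 and 6.21, of which replicate 3 met the lowest control. The falls were -0.41 ± 0.11 (SE, adjusted p = 0.0072) and -0.54 ± 0.09 (SE, adjusted p = 2.6e-04), and the first was lost in 1 fit over all metals (adjusted p = 0.12). At cadmium 1.2 µM the changes were 0.03 ± 0.08 (SE, adjusted p = 0.79) and -0.17 ± 0.11 (SE, adjusted p = 0.23). The second passed without replicate 2 (-0.28, adjusted p = 0.0047). It was at -0.43 where only the cadmium 1.2 µM array of replicate 1 was kept (adjusted p = 0.0098).

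Fas, the death receptor that couples p53 to apoptosis from outside the cell, had no probe set past the filter. On the brightest of its 3 probe sets, 1384842_s_at, the controls read 5.07 to 5.96, chromium 10 µM 6.49, 6.07, 5.78 and 5.45 and cadmium 1.2 µM 6.72, 6.11, 6.24 and 5.64. The groups overlapped, yet each exposed array was above the mean of the controls of its own replicate, by 0.28 to 0.62 for chromium and 0.45 to 1.08 for cadmium. With no filter the changes were 0.47 (adjusted p = 4.2e-04) and 0.70 (adjusted p = 9.0e-04), and that at nickel 400 µM was -0.26 (adjusted p = 0.055). On 1397221_s_at the change was 0.30 (adjusted p = 0.044) at cadmium 1.2 µM and -0.07 (adjusted p = 0.67) at chromium 10 µM. On 1369900_at neither was called (0.08, adjusted p = 0.45, and 0.00, adjusted p = 0.99). Values this low lie near the background of the array.

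At cadmium 0.55 µM the calls were Gadd45a, Ccng1 (0.48 ± 0.09 SE, adjusted p = 0.0055), the 3 Mdm2 probe sets (0.44 to 0.47, adjusted p from 7.0e-04 to 0.0038) and Phlda3. For 1383288_at and 1384427_at of Mdm2 and for Gadd45a all 4 arrays were above every control. Without replicate 3 the changes stayed close to these while most p-values rose. Gadd45a (0.90, adjusted p = 0.041) and 1384427_at (0.42, adjusted p = 0.036) then passed, and Ccng1 (0.45, adjusted p = 0.097), 1383288_at (0.45, adjusted p = 0.066) and 1383485_at (0.41, adjusted p = 0.066) did not. Without the 4 repeated arrays all 6 calls held.

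The nickel 400 µM arrays fell into a pair of replicates on each side for most members. Measured from the controls of the same replicate, Gadd45a changed by 1.18 and 1.03 in replicates 1 and 2 and by -0.11 and 0.16 in replicates 3 and 4. Ccng1 changed by 0.33 and 0.25 in the first pair and by -1.11 and -0.72 in the second. For Cdkn1a the changes were 0.34 and 0.08, then -0.48 and -1.0, and for Phlda3 0.11 and 0.10, then -0.50 and -0.70. Sesn1 was the mirror image, with -1.28 and -1.09, then 0.34 and 0.46 on 1372248_at, and -1.17 and -0.49, then 0.19 and 0.20 on 1395809_at. Mdm2 kept a positive sign in all 4 replicates on all 3 probe sets, from 0.02 to 0.62. Its fitted nickel change was still smaller without replicate 1 or 2 than without replicate 3 or 4. On 1383288_at it was 0.13 and 0.16, then 0.25 and 0.24. On 1383485_at it was 0.33 and 0.25, then 0.36 and 0.42, and on 1384427_at 0.24 and 0.23, then 0.36 and 0.38. Slc2a1, a glucose transporter gene that nickel is known to raise through the hypoxia response, was looked up after these values were seen and changed by 2.37, 2.24, 1.84 and 1.19. Replicates 1 and 2 are also the ones whose nickel and chromium arrays have the same condition under label and order, and replicate 4 at 400 µM is a repeated array. The part of either in the difference was not tested.

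**Figure D3:**
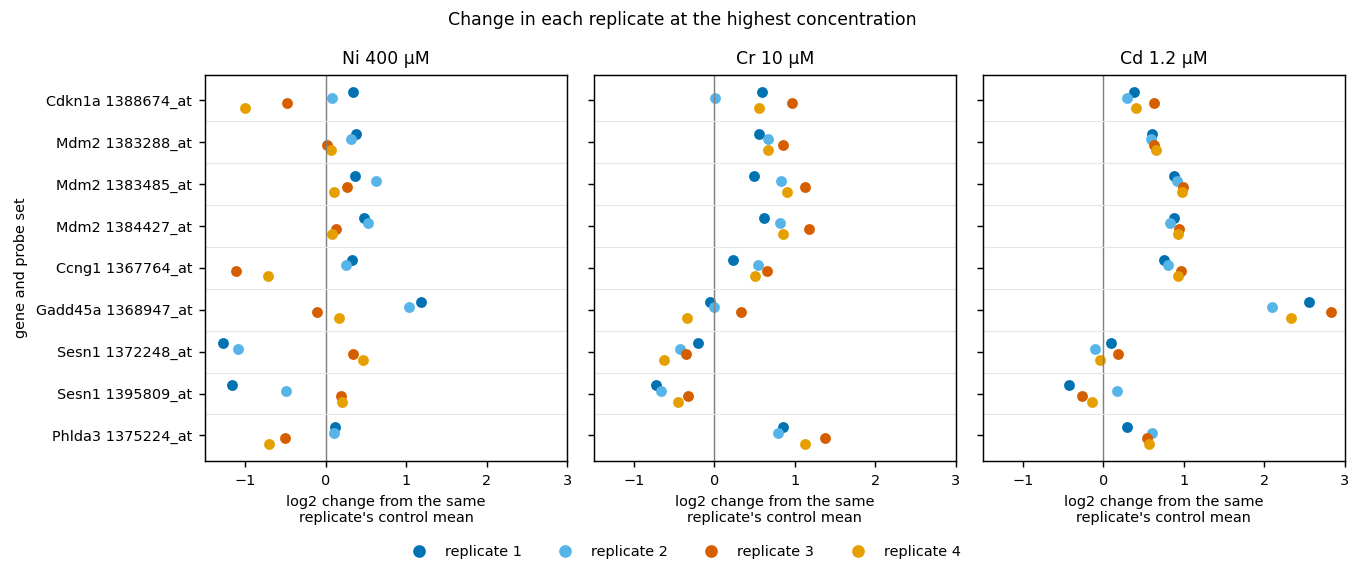
Log2 change of each exposed array from the mean of the 2 controls of its own replicate (x axis) for the 9 tested probe sets (y axis) at the highest concentration of each metal. Points are single replicates. Under nickel replicates 1 and 2 sit apart from 3 and 4 for Cdkn1a, Ccng1, Gadd45a, Sesn1 and Phlda3, and under cadmium the 4 replicates of each Mdm2 probe set lie within 0.11 of each other.

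With the arrays whose condition is the same under label and order, which for nickel and chromium leaves replicates 1 and 2, 6 of the 9 members were called at nickel 400 µM, beside 48.8% of all tested. Gadd45a was at 1.10 (adjusted p = 0.0014), the Mdm2 probe sets were at 0.35 to 0.51 (adjusted p from 0.0018 to 0.011) and Sesn1 at -1.19 (adjusted p = 3.6e-04) and -0.83 (adjusted p = 0.0045). In that fit 7 members were called at chromium 10 µM, beside 35.0% of all. Cdkn1a was not called with nickel (0.21, adjusted p = 0.11) or chromium (0.30, adjusted p = 0.12). For cadmium only 1 array was left at 0.55 µM and 1 at 1.2 µM, both of replicate 1, in a fit with 1 residual degree of freedom. Its p-values assume that these lone arrays vary like the other groups, and they are no replicate test. It called 7 members at 1.2 µM, beside 35.2% of all, of which Sesn1 1395809_at was lower, and Cdkn1a was not among them (0.29, adjusted p = 0.11).

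The exposures at the highest concentrations were then compared with each other in 1 joint fit, which gave 27 differences over the 9 members, with p adjusted over all tested probe sets. Chromium 10 µM exceeded nickel 400 µM for 6 members and was below it for 1, beside 21.9% and 23.1% of all tested and 45.0% together. Cadmium 1.2 µM exceeded nickel for 7 and was below it for none, beside 25.0% and 20.5% of all and 45.5% together. Chromium exceeded cadmium for 1 and was below it for 1, beside 19.4% and 24.6% of all and 44.0% together. Gadd45a was lower with chromium than with cadmium (log2 difference -2.47 ± 0.19 SE, adjusted p = 9.3e-12), and Phlda3 was higher with chromium by 0.53 ± 0.13 (SE, adjusted p = 0.0013). No chromium array of Gadd45a reached the lowest cadmium array, and no cadmium array of Phlda3 reached the lowest chromium array. The Mdm2 differences between the 2 metals were 0.06, -0.10 and -0.03, with 95% confidence intervals from -0.15 to 0.27, -0.28 to 0.08 and -0.22 to 0.15. That for Cdkn1a was 0.10 with an interval from -0.32 to 0.51, and that for Ccng1 was -0.38 (-0.76 to -0.01, adjusted p = 0.088). Without the 4 repeated arrays both Sesn1 probe sets were lower with chromium than with cadmium too, at -0.44 (adjusted p = 0.022) and -0.37 (adjusted p = 0.033), against adjusted p = 0.088 and 0.056 with all arrays.

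Against nickel the largest differences were Phlda3 with chromium (1.28 ± 0.13 SE, adjusted p = 1.3e-09) and Gadd45a with cadmium (1.89 ± 0.19 SE, adjusted p = 2.0e-09). Ccng1 was higher than with nickel by 0.79 (adjusted p = 6.4e-04) with chromium and 1.18 (adjusted p = 3.8e-06) with cadmium, and Cdkn1a by 0.79 (adjusted p = 0.0019) and 0.69 (adjusted p = 0.0061). Mdm2 was higher by 0.49 to 0.56 with chromium and 0.42 to 0.60 with cadmium, with adjusted p of 0.0011 or less. Gadd45a was lower with chromium than with nickel by -0.58 ± 0.19 (SE, adjusted p = 0.014), a call that was lost without replicate 1 (-0.36, adjusted p = 0.2), replicate 2 (-0.43, adjusted p = 0.1) or replicate 4 (-0.61, adjusted p = 0.05). Without replicate 3, Ccng1 (0.47, adjusted p = 0.055) and Cdkn1a (0.58, adjusted p = 0.068) no longer differed between chromium and nickel by this test, nor did Cdkn1a between cadmium and nickel without replicate 3 (0.56, adjusted p = 0.074) or 4 (0.45, adjusted p = 0.092).

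Sesn1 did not pass against nickel, at -0.01 (adjusted p = 0.97) and -0.22 (adjusted p = 0.27) with chromium and 0.43 (adjusted p = 0.095) and 0.15 (adjusted p = 0.47) with cadmium. The cadmium difference on 1372248_at passed without the 4 repeated arrays (0.73, adjusted p = 7.7e-04) and without replicate 4 (0.73, adjusted p = 0.0064), and the chromium difference on 1395809_at passed without replicate 1 (-0.45, adjusted p = 0.024). With the arrays of the same condition under label and order, 4 members differed between chromium and nickel. Sesn1 1372248_at then turned to 0.87 higher with chromium (adjusted p = 3.0e-05), and Cdkn1a (0.09, adjusted p = 0.6), Ccng1 (0.10, adjusted p = 0.51) and 2 Mdm2 probe sets (0.16, adjusted p = 0.12, and 0.21, adjusted p = 0.067) no longer differed by this test. For cadmium minus nickel those arrays leave 1 cadmium array against 2 nickel arrays, and the differences are given as values only: 0.09 for Cdkn1a, 0.20 for Phlda3 and 1.23 for Sesn1 1372248_at.

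**Figure D4:**
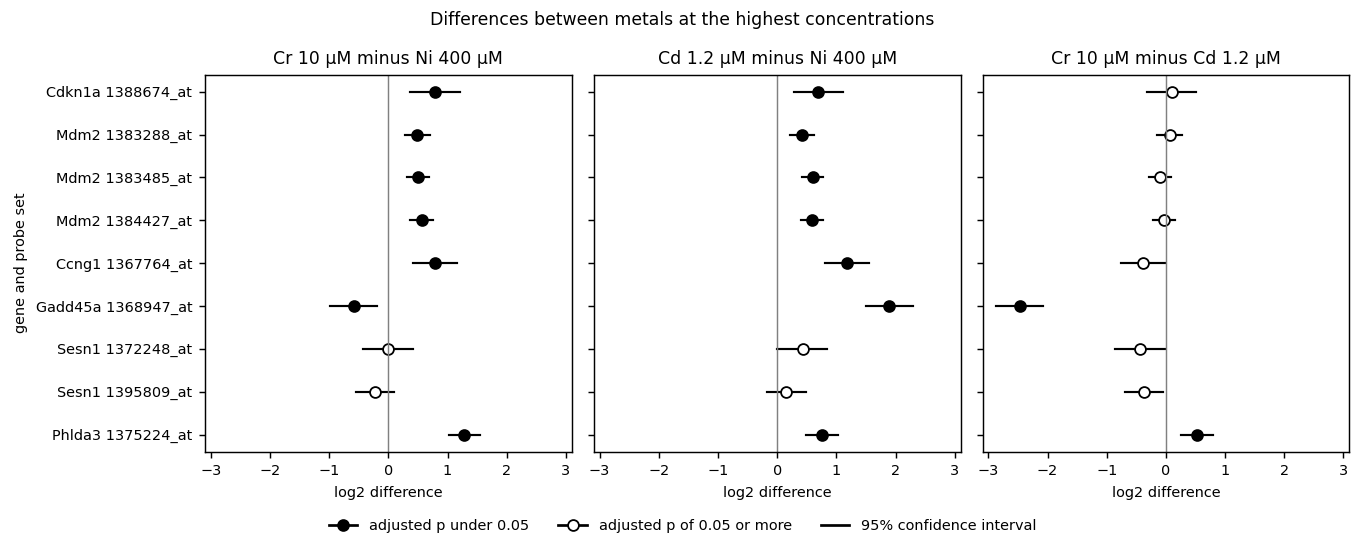
Log2 difference between metals at their highest concentrations (x axis) for the 9 tested probe sets (y axis), with 95% confidence intervals. Filled points passed an adjusted p of 0.05. Between chromium and cadmium (right) only Gadd45a (-2.47) and Phlda3 (0.53) are filled, while 7 probe sets are filled in each comparison with nickel.

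The rest of the pathway was counted with 1 probe set per gene, the one with the highest mean over all arrays. Of 48 further p53 targets 34 were tested. At chromium 10 µM 16 were called higher and 5 lower, with a median log2 change of 0.24, and at cadmium 1.2 µM 14 were higher and 4 lower, with a median of 0.19. At nickel 400 µM 8 were higher and 7 lower, with a median of -0.03. As shares of the 34, these are 47.1% and 14.7% with chromium, 41.2% and 11.8% with cadmium and 23.5% and 20.6% with nickel. Over all tested probe sets the shares were 23.2% and 19.4%, 24.2% and 14.0%, and 23.8% and 16.7%, so the nickel shares of the list lay near those of all. The same shares stand behind the lists that follow. They count every tested probe set, also dimmer ones of the same gene and those that name no gene, so the 2 kinds of share are not fully alike. Beside the members, Gtse1, which restrains p53, rose with chromium by 0.92 ± 0.10 (SE, adjusted p = 9.8e-06) and fell with nickel to -0.62 ± 0.11 (SE, adjusted p = 8.6e-04). The kinase gene Plk2 rose with chromium (0.79, adjusted p = 1.0e-04) and cadmium (0.56, adjusted p = 1.9e-04), and so did Ppm1d, the phosphatase that resets p53, with chromium (0.58, adjusted p = 4.7e-04). Ddb2, a sensor of bulky DNA lesions, rose with chromium (0.64, adjusted p = 1.9e-05) and read 0.11 with cadmium (adjusted p = 0.38). The secreted stress factor gene Gdf15 rose 4.50-fold with cadmium (2.17 ± 0.28 SE, adjusted p = 6.9e-05). Pidd1, which carries a death domain, rose with chromium (0.54, adjusted p = 0.0019) and was at -0.68 with nickel (adjusted p = 1.0e-04), and Ddit4, an inhibitor of mTORC1 that hypoxia also raises, rose with nickel by 1.46 ± 0.11 (SE, adjusted p = 1.7e-06).

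Of the 14 listed regulators of this pathway that were tested, 2 were called higher and 2 lower at chromium 10 µM and the same numbers at cadmium 1.2 µM. Chek1, a kinase of the replication checkpoint, rose with chromium (0.56, adjusted p = 1.1e-04), and Mdm4, the inhibitory partner of Mdm2, rose with cadmium (0.59, adjusted p = 1.7e-04). Of 10 tested cell cycle genes that p53 is known to lower through p21, 8 were called higher at chromium 10 µM and none lower. Ccna2 (cyclin A2) was among them at 0.84 ± 0.14 (SE, adjusted p = 3.9e-04) and read -0.67 with nickel (adjusted p = 3.4e-04). At cadmium 1.2 µM none of the 10 was called higher and 1, Cenpf, lower (-0.39, adjusted p = 0.0071). At cadmium 0.55 µM 3 were called lower and none higher (median -0.25), beside 2.28% of all called lower, and at 0.2 µM 2 lower and none higher (median -0.39), beside 0.317%. At nickel 400 µM 1 was higher and 2 lower, with a median of -0.14. The part of p53 or p21 in these values was not tested.

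Gadd45a was also set beside 11 tested genes of the ATF4 and CHOP stress response, a second route to that gene. At cadmium 1.2 µM 7 were called higher and 1 lower, at nickel 400 µM 9 higher and none lower, and at chromium 10 µM 4 higher and 2 lower. Atf3 rose with all 3 metals, by 3.25 ± 0.15 with cadmium (SE, adjusted p = 1.1e-08), 2.55 ± 0.46 with nickel (SE, adjusted p = 7.7e-04) and 1.08 ± 0.13 with chromium (SE, adjusted p = 2.0e-05). Ddit3, which encodes CHOP, rose by 1.92 with cadmium (adjusted p = 2.9e-06). Their part in the Gadd45a values was not tested. Of the 7 tested hepatocyte markers 4 were called lower and 1 higher at each of the 3 highest concentrations.

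Over the 9 mean log2 changes, the tested probe sets of Cdkn1a, Mdm2, Ccng1 and Phlda3 ran alike. Pearson's r was 0.83 to 0.95 between different genes and 0.96 to 1.00 between the Mdm2 probe sets. Gadd45a followed them less closely (0.28 to 0.69) and Sesn1 ran against them (-0.19 to -0.77). The probe sets most like Cdkn1a among 2284 candidates outside the list were those of Map3k6 (r = 0.955), Srxn1 (0.948) and Nop9 (0.943), and those most like 1383288_at of Mdm2 were Xpo4 (0.994), Ddx56 (0.986) and Naa16 (0.974). These are descriptions over 9 points, and the 3 points of a metal share arrays and controls.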

How the data were processed

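The arrays were Affymetrix GeneChips for the rat genome. Per the labels and the study's methods, RMA in Partek gave the log2 values that the authors deposited, and an array that failed their criteria was made again from the same RNA. Each of the 44 columns is 1 array. The members and gene lists were chosen with earlier results of these data known. Probe sets were named through the platform annotation and current RefSeq symbols, and 20826 name 1 gene, 436 several and 9780 none. The study filtered on detection calls, which were not used here. In their place a probe set had to reach the median of all values (5.965) on every array of at least 1 condition, and 57 control probe sets of the array were left out.

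Separate limma fits (version 3.58.1, R 4.3.3) were made for the 3 metals, with condition and replicate number as terms, because the methods fit dose and batch. The replicate number stands in for the batch, which the sources used here do not tie to it. The 2 control arrays of a replicate were averaged first, which gave 16 values and 9 residual degrees of freedom. Metals were compared in 1 joint fit of 40 values. P-values were two-sided, with Benjamini-Hochberg adjustment per comparison. The fit was tested on simulated data. From the other lists, up to 3 genes per list and metal with the smallest adjusted p at the highest concentration were eligible to be named, and probe sets like Cdkn1a and Mdm2 were taken from those with an adjusted p under 0.05 and a 1.5-fold change in at least 1 exposure. Alternatives varied the conditions, controls, block, filter, scaling, test and call rule, and a block of their own for the repeated arrays was added after the data were seen. The number of arrays limits the precision.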

Additional observations from a re-analysis of the deposited data

Results flagged for a closer look

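Among 130 groups of member arrays (13 probe sets in 10 conditions), 13 held an array whose gap to its nearest neighbour took up more of the group's range than Dixon's 95% critical value (0.829 for 4 arrays, 0.526 for 8). Chance flags about 1 group in 20. Of the 13 arrays, 4 were repeated arrays.

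Those 4 were Cdkn1a 1387391_at at chromium 0.275 µM (gap 0.873 of the range, value 4.45 against 5.21 for the nearest), Cdkn1a 1388674_at at nickel 140 µM (0.893, 7.84 against 8.55), Mdm2 1384427_at at nickel 140 µM (0.834, 9.37 against 9.67) and Sesn1 1372248_at at chromium 0.275 µM (0.902, 8.01 against 7.50), all in replicate 4. The repeated array was the lowest in the first 3 and the highest in the last. None of these conditions had a called member.

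At the highest concentrations, Cdkn1a 1387391_at had replicate 2 of chromium 10 µM far below the rest (0.969, 5.75 against 6.69), and Mdm2 1384427_at had replicate 3 of chromium 10 µM above (0.885, 10.77 against 10.45). Ccng1 1367764_at had replicate 4 of chromium 10 µM below (0.831, 10.41 against 10.54), and Mdm2 1383288_at had replicate 1 of cadmium 1.2 µM above (0.872, 10.55 against 10.37). Apart from the Cdkn1a array, these also lay above every control.

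At nickel 40 µM Mdm2 1383485_at was flagged in replicate 4 (0.915, 8.03 against 8.30). Replicate 1 of nickel 40 µM was flagged on both Ccng1 1367764_at (0.858, 9.88 against 9.64) and Phlda3 1375224_at (0.867, 8.01 against 7.79). Fas 1397221_s_at was flagged in replicate 1 of chromium 0.275 µM (0.858, 4.70 against 4.29). The last, Sesn1 1372248_at in replicate 1 of cadmium 0.2 µM (0.835, 7.66 against 7.67), lay in a group whose whole range was 0.013.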

How the results depend on the processing

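Of 114 counts of called members under the alternatives, 89 stayed within 1.5 times the count reported. With conditions as labelled in GEO every count was 0. Under the stricter rule (FDR 0.001, 1.8-fold), the members called were 0 for nickel 400 µM, 2 for chromium 10 µM, 4 for cadmium 1.2 µM and 1 at the lower concentrations, and those differing were 1 for chromium minus nickel, 2 for cadmium minus nickel and 1 for chromium minus cadmium. With only the arrays of the same condition under label and order, the counts were 6 for nickel, 3 at the lower concentrations, 4 for chromium minus nickel and 5 for chromium minus cadmium. The calls at the lower concentrations and those against cadmium rest there on 1 array at cadmium 0.55 µM and 1 at 1.2 µM, assumed to vary like the other groups. With 8 separate controls nickel had 4. Without the 4 repeated arrays, and also with a block of their own for these arrays, 4 members differed between chromium and cadmium. Leaving out 1 replicate at a time gave 0 to 3 for nickel, 6 to 8 for chromium, 6 to 8 for cadmium, 2 to 5 at the lower concentrations, 5 to 7 for chromium minus nickel, 6 to 7 for cadmium minus nickel and 2 to 3 for chromium minus cadmium. Nickel had 0 without replicate 2 and 1 without replicate 1, and the lower concentrations had 2 without replicate 3. With no filter the counts rose to 10 for chromium and 10 for cadmium, since the dim probe sets of Cdkn1a and Fas entered. The share called over all 31042 probe sets was then 21.9% and 22.0%. That share moved with the setting. At nickel 400 µM it was 40.5% in the fit reported, 48.8% with only the arrays of the same condition and 21.9% with no filter. Where no share is given for an alternative, its member counts cannot be set against all probe sets.

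Arrays with the same replicate number deviated together, with a median r of 0.43 to 0.613 within a number, but not every pair passed 0.1 (85.2% in replicate 2 and 94.4% in replicate 4). Between numbers the median r was -0.333 to -0.209. The mean of each condition was subtracted first, so positive values within a number make those between numbers negative by arithmetic. With no replicate block the members called were 1 for nickel, 8 for chromium, 6 for cadmium and 4 at the lower concentrations, and those differing were 6, 7 and 2.

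Of 798 changes of single probe sets under the alternatives, 707 kept their direction and their side of the threshold or stayed uncalled, 57 lost the call, 26 gained one and 8 reversed. Of the 8, 7 came with conditions as labelled, none of them called: Cdkn1a with cadmium 1.2 µM (-0.09), Cdkn1a for chromium minus nickel (-0.05), and, for cadmium minus nickel, Cdkn1a (-0.23), Mdm2 1383485_at (-0.10), Mdm2 1384427_at (-0.11), Gadd45a (-0.02) and Phlda3 (-0.04). The other was Sesn1 1372248_at for chromium minus nickel, at 0.87 (adjusted p = 3.0e-05) with only the arrays of the same condition. The causes were not tested.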

Other observations

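The probe set 1369122_at names both Bax, the pore-forming protein of the mitochondrial death pathway, and LOC681314, and its values cannot be assigned to either. It read 9.39 to 9.82 on the 8 controls and 8.61 to 9.14 on the 4 arrays at nickel 400 µM, with no overlap, a change of -0.83 ± 0.10 (SE, adjusted p = 3.4e-05). All 4 nickel replicates were low on this probe set, unlike most members. The change was -0.28 ± 0.08 (SE, adjusted p = 0.0088) at chromium 10 µM and 0.11 ± 0.06 (SE, adjusted p = 0.15) at cadmium 1.2 µM.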
